A study of Mus musculus with 17 samples.

Results

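Interferon-stimulated genes are the transcripts that a cell makes after an interferon binds its receptor. The 9 described here, *Ifit1*, *Ifit2*, *Ifit3*, *Isg15*, *Irf7*, *Stat2*, *Usp18*, *Oasl2* and *Rsad2*, form one named set, and their rows were taken by gene symbol from the ERCC-calibrated gene table of a study of NAT10 in mouse spermatogenesis. All 9 symbols were found among the 23282 genes of the table. The study sorted 3 stages by FACS from wild type (WT) and *Nat10*-SKO (SKO) testes, namely spermatogonia (SPG), spermatocytes of pre-leptotene (PreL), and those of leptotene and zygotene together (LZ), and sequenced polyadenylated RNA by Smart-seq2 with ERCC spike-in RNA. SKO mice carried *Nat10* fl/-;Stra8-Cre, in which a Stra8-GFPCre knock-in excises the floxed exons in germ cells that have begun to express *Stra8*, so that somatic cells of the testis and earlier germ cells keep the floxed *Nat10* allele. WT mice were the controls, labelled as WT without further alleles, and all mice were on a C57BL/6 background (C57BL/6J in the study's methods). No agent was given. The age of the mice sorted for sequencing and the number of animals in each library were not given in the sources used here, so p-values measure the spread between these libraries, which may in part be technical. There were 3 libraries each of WT SPG, SKO SPG, WT PreL, SKO PreL and SKO LZ, and 2 of WT LZ. They carry the numbers of the labels, which are 1, 2 and 3 but for SKO SPG (1, 3 and 4), WT PreL (1, 2 and 4) and WT LZ (2 and 3), and values are given in that order.

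Type I interferons bind the receptor made of IFNAR1 and IFNAR2, and the kinases JAK1 and TYK2 then phosphorylate STAT2, which acts with IRF9 in a complex that binds the interferon-stimulated response element, a DNA element with a repeated GAAA core, in the promoters of its targets. STAT2 is thus both a carrier of the signal and a target of it, and IRF7 is the induced transcription factor that widens the production of type I interferons. IFIT1, IFIT2 and IFIT3 bind viral RNA or the proteins of translation, OASL2 is a relative of the 2'-5'-oligoadenylate synthetases and RSAD2 (viperin) makes a nucleotide that stops viral polymerases. ISG15 is a ubiquitin-like protein that is attached to other proteins, and USP18 takes it off again and also damps signalling at the receptor. In the testis, macrophages, Leydig cells and Sertoli cells are known to respond to interferon, and germ cells are known to respond less.

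The promoters are shown because the set is defined by response to one DNA-binding complex and because its members had fold changes of both signs in PreL. Windows of 300 bases, from 250 before to 50 after the start of a transcript, were taken from RefSeq (GRCm38.p6) for 8 of the 9 members. They were searched on both strands for GAAANNGAAA, the repeated core of the element, which reads TTTCNNTTTC on the other strand, and overlapping matches were counted. A match was found in 5 of the 8 members (*Ifit1*, *Ifit3*, *Isg15*, *Stat2* and *Rsad2*), or 62.5%, in 28 of 79 other genes of the interferon pathway, or 35.4%, and in 1079 of 27025 genes with a window, or 3.99%. Over all 32851 windows of that length, 3.44% held a match. The windows of *Ifit2*, *Irf7* and *Oasl2* had none. A match describes the letters in a window and is neither a site nor a cause, and the lack of one says nothing of the factor. Of the members printed here, *Ifit1*, *Stat2* and *Oasl2* had every SKO PreL library above every WT PreL library, and *Isg15*, which had the most matches, had too few reads to test. They lie on the + strand at chr19:34640639-34640938, chr10:128270248-128270547 and chr5:114896684-114896983, and on the - strand at chr4:156200769-156201068, in that order. Capitals mark the matches.
Ifit1: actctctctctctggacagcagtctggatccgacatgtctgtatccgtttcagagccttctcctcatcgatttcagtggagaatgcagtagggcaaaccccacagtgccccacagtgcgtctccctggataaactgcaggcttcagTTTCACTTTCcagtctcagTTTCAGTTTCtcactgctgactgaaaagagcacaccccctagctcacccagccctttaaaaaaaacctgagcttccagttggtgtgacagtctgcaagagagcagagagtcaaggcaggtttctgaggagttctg
Stat2: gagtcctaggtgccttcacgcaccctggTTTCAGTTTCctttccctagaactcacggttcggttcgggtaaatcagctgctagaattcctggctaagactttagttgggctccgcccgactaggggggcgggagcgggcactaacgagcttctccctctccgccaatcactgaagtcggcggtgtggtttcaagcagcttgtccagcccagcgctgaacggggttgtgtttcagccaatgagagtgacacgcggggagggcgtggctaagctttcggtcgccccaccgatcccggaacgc
Oasl2: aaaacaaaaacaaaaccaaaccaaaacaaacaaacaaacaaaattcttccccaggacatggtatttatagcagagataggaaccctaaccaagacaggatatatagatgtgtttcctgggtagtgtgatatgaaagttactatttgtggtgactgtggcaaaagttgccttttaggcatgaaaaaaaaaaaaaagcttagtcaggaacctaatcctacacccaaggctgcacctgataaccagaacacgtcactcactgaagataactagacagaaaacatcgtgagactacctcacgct
Isg15: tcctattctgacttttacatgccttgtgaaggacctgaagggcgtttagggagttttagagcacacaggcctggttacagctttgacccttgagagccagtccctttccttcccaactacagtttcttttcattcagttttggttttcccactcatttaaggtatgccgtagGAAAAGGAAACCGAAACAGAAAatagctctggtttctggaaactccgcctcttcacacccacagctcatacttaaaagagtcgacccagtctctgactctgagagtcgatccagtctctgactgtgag

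*Ifit1* and *Ifit3* each had 2 matches that did not overlap, *Stat2* and *Rsad2* 1 each, and *Isg15* 3 that overlapped in 1 run of 22 bases. The match nearest the start of the transcript began 85 bases before it in *Ifit1*, 222 in *Stat2* and 66 in *Isg15*.

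The genes lie on 7 chromosomes of GRCm38 (GENCODE vM21), and all are protein coding. *Ifit2* (chr19:34550694-34576419), *Ifit3* (chr19:34583531-34588731) and *Ifit1* (chr19:34640871-34650009) are neighbours on the + strand. *Stat2* lies at chr10:128270559-128292849 (+), *Oasl2* at chr5:114896936-114912234 (+), *Usp18* at chr6:121245906-121270917 (+), *Irf7* at chr7:141262706-141266481 (-), *Isg15* at chr4:156199424-156200818 (-) and *Rsad2* at chr12:26442746-26456452 (-). The values count reads over annotated exons, UTRs included. Of the stretches of 100 bases in the exons of *Ifit3*, 31.7% also occur in *Ifit3b*, and since uniquely mapped reads were counted its values are uncertain. This share was 3.29% for *Ifit1* (with *Ifit1bl2*) and 1.0% for *Usp18*. The strand setting of the counting was not given in the sources used here, and 124 exon bases of *Usp18* overlap *Gm44148* and 45 of *Irf7* overlap *Phrf1* on the other strand, so reads there cannot be told apart.

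The deposited values are read counts multiplied by 1 factor per library, and dividing by it gave back whole reads for 100% of values (within 0.01 reads). Libraries held between 5812380 and 13820953 reads, with SKO LZ the shallowest group (5812380 to 7609420) and WT LZ the deepest (13666762 and 13820953). *Nat10*, the targeted gene, was lower in every SKO library than in every WT library of its stage, and the log2 fold change was -0.87 in SPG, -1.29 in PreL and -1.47 in LZ (adjusted p 0.0326, 0.00591 and 0.00469, limma with Benjamini-Hochberg adjustment). Germ cell markers were present in all libraries: summed over 9 genes of spermatogonia they stood at 501 to 1590 RPM (reads of the gene per 1000000 reads of the library), and over 9 genes of early meiotic cells at 2416 to 8582 RPM. Fold changes were computed after scaling each library by its size factor. On the ERCC-calibrated values as deposited, the median log2 fold change of all genes moved to -0.25 in SPG, 0.73 in PreL and -0.25 in LZ, and the share of called genes that were lower in SKO went from 34.3% to 59.2%, from 52.3% to 14.5% and from 65.8% to 71.2%. Changes are reported relative to the rescaled median. Markers of other cells differed between libraries and are given beside the results. In sorted bulk samples, fewer cells of a type and less RNA per cell cannot be told apart.

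All 9 genes were weakly expressed. Per kilobase of exon, the mean level over the 17 libraries was highest for *Stat2*, at 1.15 ± 0.929 RPKM (RPM per kilobase, SD). It was followed in this unit by *Oasl2* at 0.921 ± 0.825, *Ifit3* at 0.838 ± 0.710, *Ifit1* at 0.679 ± 0.710 and *Usp18* at 0.621 ± 0.711 RPKM. The lowest levels were those of *Rsad2* at 0.304 ± 0.331, *Ifit2* at 0.298 ± 0.28, *Isg15* at 0.258 ± 0.357 and *Irf7* at 0.239 ± 0.222 RPKM. Neighbours in this order differed by less than their SD. Summed over the 9 genes, a library held between 77 and 471 reads. A gene was tested in a stage when its mean over the libraries compared was at least 10 reads, and 6 members passed in SPG, 8 in PreL and 4 in LZ. *Isg15*, with a mean of 2.18 reads over all libraries, passed nowhere. *Usp18* (7.5 reads) and *Rsad2* (4.5) had too few in SPG, and *Ifit1* (5.4), *Ifit2* (2), *Ifit3* (2.4) and *Irf7* (8.2) had too few in LZ. *Ifit2* passed by the least margin in PreL, with a mean of exactly 10 reads. A count of 0 allows a level of up to 3 reads, which is 0.217 to 0.516 RPM at these depths, for counting error alone.

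**Figure D1:**
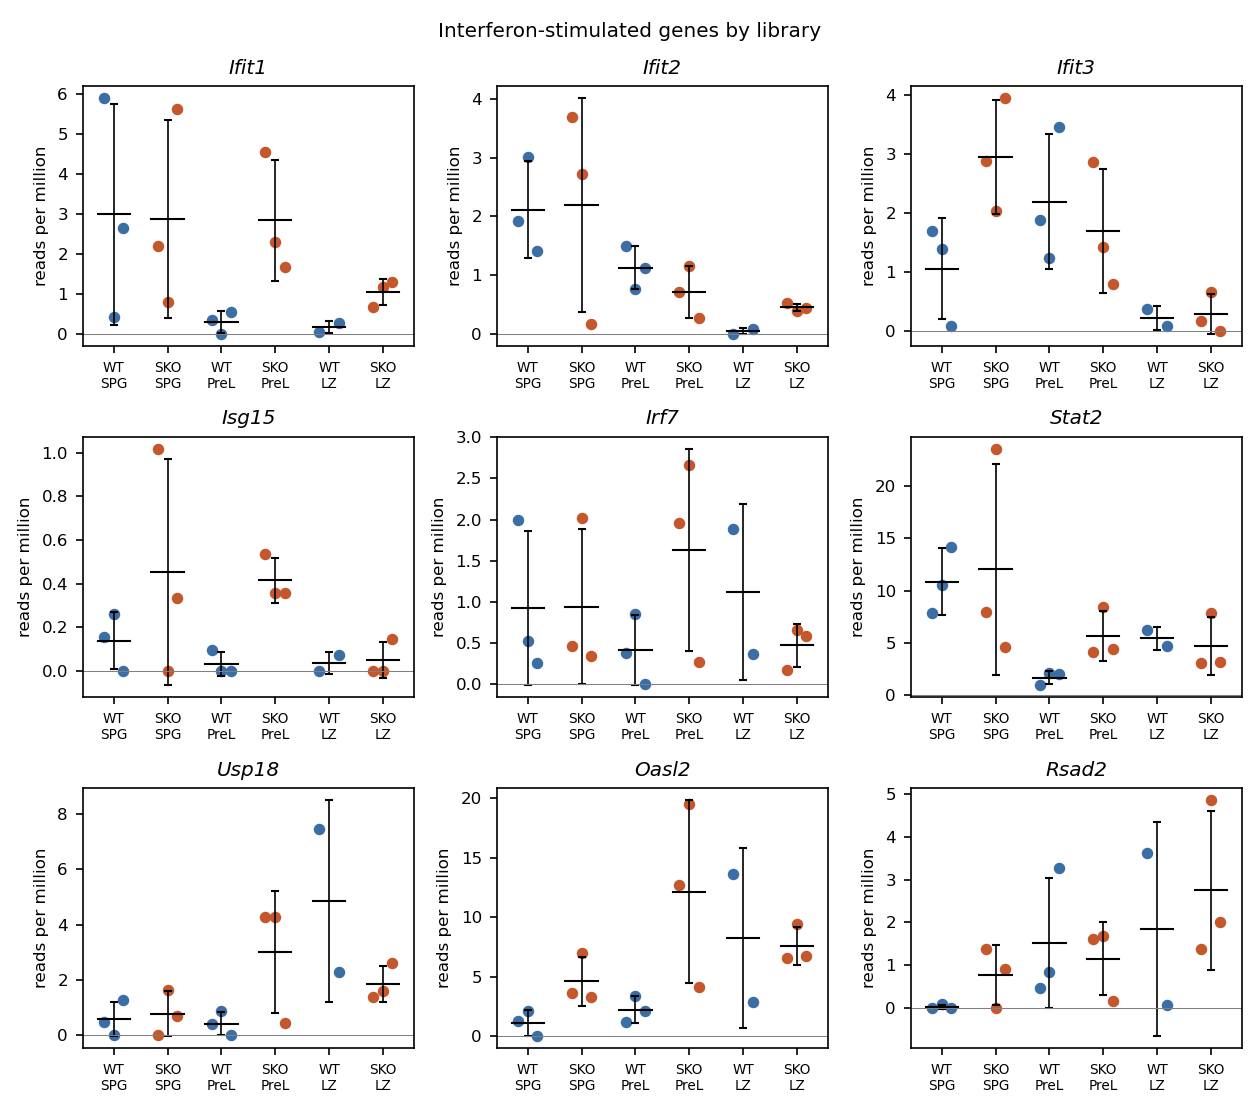
Level of each of the 9 interferon-stimulated genes in every library, in RPM (y axis, own scale in each panel), by genotype and stage (x axis). Points are libraries (blue WT, orange SKO), the bar is the group mean and the whisker its SD. The 3 SKO PreL libraries lie above the 3 WT PreL libraries for *Ifit1*, *Isg15*, *Stat2* and *Oasl2*, and most points lie below 5 RPM.

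Between genotypes, members passed the test in PreL, the stage that enters meiosis, and in neither of the other stages. *Ifit1* and *Oasl2* were higher in SKO PreL, each by about 2 on the log2 scale. *Stat2*, *Usp18* and *Irf7* had fold changes above 1 that did not pass, and those of *Ifit2*, *Ifit3* and *Rsad2* were below 0. This made 2 of the 8 members tested, or 25%, beside 5.32% of all 13132 genes tested that were called higher. This count was 0 without SKO library 1 or 2 or WT library 1 or 2, 3 without SKO library 3, and 4 on values not rescaled. No member was called lower, beside 5.83% of all genes. The median log2 fold change of the 8 was 1.23, beside 0.04 over all genes, and 5 of them were above 0 and 3 below. *Ifit1*, *Usp18* and *Irf7*, with 9 reads or fewer in each WT PreL library, passed the filter only through SKO libraries. They entered these counts and the median through the group in which they were high. Every SKO library was above every WT library for 3 of the 8, *Ifit1*, *Oasl2* and *Stat2*, while this held for 17.4% of all genes.

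*Ifit1*, whose protein binds foreign messenger RNA at its cap, had 4, 0 and 6 reads in the WT PreL libraries and 51, 26 and 19 in the SKO PreL libraries. The groups did not overlap, and the lowest SKO library was the one numbered 3. In RPM, the mean level was 0.311 ± 0.285 in WT and 2.85 ± 1.5 in SKO (SD, n = 3 each). The log2 fold change, SKO minus WT, on the scale of log2(value + 10), was 1.96 ± 0.52 (SE, adjusted p = 0.0313, limma). Because 10 is added to every value, fold changes of genes this low are understated on that scale, and this one was 0.86 with 50 added and 3.44 with 1 added. The call depended on the setting: it held in 9 of 16 alternatives, and adjusted p values ranged from 0.00439 to 0.189.

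*Oasl2* had 13, 36 and 23 reads in WT PreL and 143, 220 and 47 in SKO PreL. Again SKO library 3 was the lowest of its group, and here it stood close to the highest WT library. The mean level was 2.25 ± 1.10 RPM in WT and 12.1 ± 7.69 RPM in SKO, and the log2 fold change was 1.97 ± 0.53 (adjusted p = 0.0333, limma, 11 of 18 alternatives called, adjusted p from 0.00178 to 0.579). With SKO library 3 left out the log2 fold change was 2.52 (adjusted p = 0.00706), and between that library alone and WT, where the spread comes from WT only and the adjusted p of 0.579 arises, it was 0.84.

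*Stat2*, the member with the highest level per kilobase, had 10, 22 and 22 reads in WT PreL and 46, 95 and 50 in SKO PreL. The groups did not overlap and SKO library 3 was not the lowest. Its log2 fold change of 1.41 ± 0.43 missed the threshold by a small margin (adjusted p = 0.0503, limma), and it was called in 3 of 17 alternatives. Between SKO library 3 alone and WT its log2 fold change was 1.21.

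*Usp18* and *Irf7* split the SKO PreL group. *Usp18*, the ISG15 protease, had 4, 9 and 0 reads in WT PreL and 48, 48 and 5 in SKO PreL. *Irf7* had 4, 9 and 0 reads in WT and 22, 30 and 3 in SKO. For both genes, SKO libraries 1 and 2 were above all WT libraries and SKO library 3 lay within the WT range. The log2 fold changes were 1.67 ± 0.69 for *Usp18* and 1.06 ± 0.65 for *Irf7* (adjusted p = 0.126 and 0.282, limma), and without SKO library 3 they were 2.39 (adjusted p = 0.0201) and 1.63 (adjusted p = 0.0842).

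*Ifit2*, *Ifit3* and *Rsad2* did not pass the test, and their fold changes were below 0 on the rescaled values, but above 0 for *Ifit3* and *Rsad2* on the ERCC-calibrated values as deposited (log2 0.19 for both). *Ifit2* had 16, 8 and 12 reads in WT PreL and 8, 13 and 3 in SKO PreL. *Ifit3* had 20, 13 and 37 reads in WT and 32, 16 and 9 in SKO. *Rsad2* had 5, 9 and 35 reads in WT and 18, 19 and 2 in SKO. The groups overlapped for all 3 genes, and SKO library 3 held the fewest reads of each among the SKO PreL libraries. The log2 fold changes were -0.51 ± 0.49, -0.37 ± 0.51 and -0.28 ± 0.67 (adjusted p = 0.497, 0.647 and 0.799, limma). *Isg15* was not tested, but its reads separated the groups, with 1, 0 and 0 in WT and 6, 4 and 4 in SKO. The ratio of its summed RPM was 13.3, with an exact 95% counting interval of 2.02 to 561 that leaves out the spread between libraries.

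**Figure D2:**
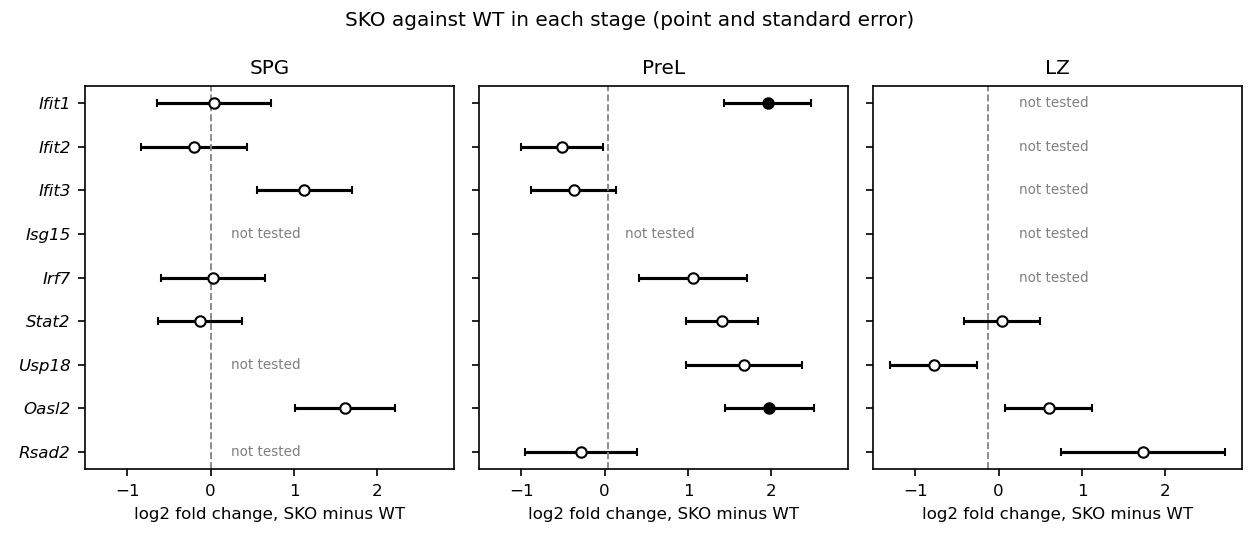
Log2 fold change of each member, SKO minus WT (x axis, on log2(value + 10)), in SPG, PreL and LZ, with its standard error. Filled points were called at an adjusted p under 0.05 and a log2 fold change above 1, open points were not, and the dashed line is the median of all genes tested. The 2 filled points are *Ifit1* and *Oasl2* in PreL, and *Ifit2*, *Ifit3* and *Rsad2* lie left of 0 in that stage on these rescaled values, while *Ifit3* and *Rsad2* lie right of it on the values as deposited.

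In SPG no member was called, in either direction, of the 6 tested. By limma 1 member (*Oasl2*) had an unadjusted p under 0.05, and edgeR and DESeq2 also called 0, while 3.95% of all 12846 genes were called higher and 2.06% lower. The median log2 fold change of the 6 was 0.03, beside 0.00 over all genes. *Oasl2* had 17, 25 and 0 reads in WT SPG and 39, 69 and 39 in SKO SPG. *Ifit3* had 22, 16 and 1 in WT and 31, 20 and 47 in SKO. On the rescaled values every SKO library was above every WT library for these 2 of the 6, while this held for 15.2% of all genes. The log2 fold changes were 1.61 ± 0.60 for *Oasl2* (adjusted p = 0.102, limma) and 1.12 ± 0.57 for *Ifit3* (adjusted p = 0.233).

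*Stat2* and *Ifit1* varied widely within the SPG groups. *Stat2* had 102, 122 and 171 reads in WT SPG and 86, 233 and 55 in SKO SPG. *Ifit1* had 77, 5 and 32 in WT and 24, 8 and 67 in SKO. SKO libraries lay on both sides of the WT range for *Stat2*, and within it for *Ifit1*, and the log2 fold changes were -0.13 ± 0.50 and 0.04 ± 0.68 (adjusted p = 0.909 and 0.980, limma).

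*Ifit2*, with 25, 35 and 17 reads in WT SPG and 40, 27 and 2 in SKO SPG, had a log2 fold change of -0.20 ± 0.63, and *Irf7*, with 26, 6 and 3 against 5, 20 and 4, had 0.03 ± 0.63 (adjusted p = 0.882 and 0.985, limma). For both genes the groups overlapped. Of the untested members, *Rsad2* had 0, 1 and 0 reads in WT SPG and 15, 0 and 11 in SKO SPG, *Usp18* had 6, 0 and 15 against 0, 16 and 8, and *Isg15* had 2, 3 and 0 against 11, 0 and 4. SKO SPG library 3 had no read of *Isg15* or *Rsad2* although it held the most *Stat2* and *Oasl2*.

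In LZ the 4 members tested did not separate by genotype. None was called in either direction or had an unadjusted p under 0.05 by limma, and edgeR and DESeq2 called 0, while 13.4% of all 13724 genes were called higher and 25.8% lower. The median log2 fold change of the 4 was 0.32, beside -0.13 over all genes. For 0 of the 4 was every SKO library above every WT library, which held for 30.3% of all genes. The 2 WT LZ libraries, numbered 2 and 3, disagreed with each other: *Usp18* had 103 and 31 reads in them, *Oasl2* 188 and 40, *Rsad2* 50 and 1, and *Irf7* 26 and 5. In the 3 SKO LZ libraries *Usp18* had 8, 12 and 18 reads, *Oasl2* 38, 72 and 47 and *Rsad2* 8, 37 and 14. Since SKO LZ libraries were shallower, levels are given in RPM: *Oasl2* stood at 8.26 ± 7.55 in WT and 7.59 ± 1.62 in SKO, and *Usp18* at 4.86 ± 3.67 and 1.85 ± 0.655. On the rescaled values of the fit, the mean of *Oasl2* was instead higher in SKO (354 in WT and 456 in SKO).

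For *Oasl2* and *Rsad2* the direction in LZ turned on which WT library was kept, while that of *Usp18* stayed below 0 with either. With 1 WT library the spread comes from the SKO libraries alone. The log2 fold change of *Oasl2* was 0.60 ± 0.52 (adjusted p = 0.368, limma), 1.44 without WT LZ library 2 (adjusted p = 0.0300) and -0.29 without WT LZ library 3 (adjusted p = 0.448). For *Rsad2* it was 1.74 ± 0.98 (adjusted p = 0.176), 3.45 without library 2 (adjusted p = 0.0308) and -0.03 without library 3 (adjusted p = 0.980). *Stat2*, with 86 and 64 reads in WT LZ and 18, 60 and 22 in SKO LZ, had a log2 fold change of 0.04 ± 0.46 (adjusted p = 0.948), and *Usp18* had -0.78 ± 0.52 (adjusted p = 0.248).

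The members with too few reads in LZ still had reads to count. *Ifit1* had 1 and 4 reads in WT LZ and 4, 9 and 9 in SKO LZ, and in RPM the groups did not overlap (0.183 ± 0.156 and 1.06 ± 0.324). *Ifit2* had 0 and 1 reads in WT and 3 in each SKO library, a ratio of summed RPM of 12.2 with an exact 95% counting interval of 1.68 to 533. Both genes were called higher when no filter on low values was used. *Ifit3* had 5 and 1 reads against 1, 5 and 0, and *Isg15* had 0 and 1 against 0, 0 and 1, so a difference was not detectable at this depth.

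Within each genotype, the stages were compared to ask how the genes change as cells enter meiosis. *Stat2* fell from SPG to PreL in WT, where its level went from 10.9 ± 3.21 to 1.69 ± 0.654 RPM. The log2 fold change was -2.35 ± 0.51 (adjusted p = 0.00845, limma), and it was called in 16 of 16 alternatives. It was the only one of 8 members called in that comparison by limma, beside 1.76% of all 13530 genes called lower and 3.57% higher. The level of *Ifit1* went from 3.00 ± 2.75 to 0.311 ± 0.285 RPM there. Its log2 fold change was -1.79 ± 0.65 (adjusted p = 0.0819, limma), and it was called in 3 of 15 alternatives. *Rsad2* went from 1 read in all of WT SPG to 49 in WT PreL, a ratio of summed RPM of 56.1 with an exact 95% counting interval of 9.61 to 2261, but 35 of the 49 were in 1 library and it was not called (adjusted p = 0.120). In SKO no member was called between SPG and PreL by limma, none had an unadjusted p under 0.05, edgeR and DESeq2 also called 0, and the background was 3.06% higher and 0.939% lower. *Stat2* had a log2 fold change of -0.80 ± 0.51 there (adjusted p = 0.372).

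From PreL to LZ in WT, 4 of 8 members were called, 2 in each direction, beside 22.3% of all genes called higher and 6.65% lower. On the values as deposited, without rescaling, the calls were 4 higher (*Irf7*, *Oasl2*, *Stat2* and *Usp18*) and 0 lower. *Usp18* and *Stat2* were higher in LZ, by 2.55 ± 0.78 and 1.49 ± 0.57 on the log2 scale (adjusted p = 0.0128 and 0.0418, limma). *Ifit3* was lower (log2 fold change -1.97 ± 0.65, adjusted p = 0.0195), and so was *Ifit2* (-1.66 ± 0.66, adjusted p = 0.0473). *Ifit3* had 20, 13 and 37 reads in WT PreL and 5 and 1 in WT LZ. *Ifit2* had 36 reads in all of WT PreL and 1 in WT LZ, a ratio of summed RPM of 30.9 with an exact 95% counting interval of 5.21 to 1254. Leaving out a WT LZ library leaves 1, which the fit takes to vary like the other groups. Without library 2 only *Ifit3* was called (log2 fold change -2.18, adjusted p = 0.0462) and *Usp18* was at 1.92 (adjusted p = 0.137), and without library 3 *Usp18* was at 3.12 (adjusted p = 0.0222) and *Ifit3* at -1.67 (adjusted p = 0.131). In SKO no member was called between PreL and LZ by limma, 1 had an unadjusted p under 0.05 (*Ifit3*, log2 fold change -1.39 ± 0.58, adjusted p = 0.0880), and the background was 8.22% higher and 5.05% lower. Markers of other cells also differed between the stages. From PreL to LZ in WT, 8 of 8 markers of Sertoli cells and 6 of 7 of late spermatocytes were called higher. Of 13 macrophage markers 4 were called lower, and the part of these cells in the stage changes was not tested. The WT PreL libraries enter the genotype comparison and both stage comparisons of WT, so these are not independent of each other.

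Whether the effect of genotype differed between stages was tested as an interaction in 1 fit of all 17 libraries. No member passed by limma, edgeR or DESeq2. From SPG to PreL, 3 of 8 members had an unadjusted p under 0.05: the SKO effect changed by 1.96 ± 0.92 for *Ifit1*, by 1.55 ± 0.72 for *Stat2* and by -1.74 ± 0.82 for *Ifit3* (adjusted p = 0.321, 0.317 and 0.322, limma). In that test 0.251% of all genes were called as a larger effect in PreL and 0.111% as a smaller one. From PreL to LZ, 1 of 8 had an unadjusted p under 0.05, *Usp18*, whose SKO effect changed by -2.45 ± 1.05 (adjusted p = 0.0719), beside 15.1% of all genes called upwards and 23.1% downwards. That the *Ifit1* and *Oasl2* effects passed in PreL and not in SPG is therefore not a shown difference between the stages.

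Markers of other testicular cells also differed between libraries. Sertoli cell markers (8 genes, *Clu* and *Cldn11* the most abundant) summed to 737 and 958 RPM in SKO PreL libraries 1 and 2 but to 66.1 RPM in SKO library 3, and to 66.5 to 72.9 RPM in WT PreL. The 9 interferon-stimulated genes summed to 33.3, 41.8 and 12.6 RPM in SKO PreL libraries 1, 2 and 3, and to 7.19, 10.02 and 12.6 RPM in WT PreL. Leydig cell markers (7 genes, *Cyp17a1* and *Hsd3b1* the most abundant) summed to 271, 459 and 40.4 RPM in those SKO libraries and to 6.25 to 17.7 RPM in WT PreL. SKO library 3 was thus lowest of its group in all 3 sums, while its Leydig sum was still above that of every WT PreL library.

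Markers of immune cells differed as well. Those of macrophages (13 genes, *Cd163* and *H2-Ab1* the most abundant) summed to 216, 230 and 113 RPM in SKO PreL libraries 1, 2 and 3 and to 95.5 to 139 RPM in WT PreL. Those of lymphocytes (7 genes, *Nkg7* and *Cd3g* the most abundant) summed to 53.2 to 67.7 RPM in SKO PreL and to 8.21 to 15.6 RPM in WT PreL. In SPG, macrophage markers stood at 248 to 294 RPM in SKO and 50.5 to 75.1 RPM in WT, and lymphocyte markers at 92.1 to 148 and 46.2 to 67.5 RPM. Leydig cell markers stood at 62.5 to 225 RPM in SKO SPG and 5.61 to 15.5 RPM in WT SPG, Sertoli cell markers at 47.0 to 91.7 and 23.6 to 35.3 RPM, and those of peritubular myoid cells (5 genes, *Acta2* and *Tagln* the most abundant) at 35.3 to 65.2 and 0.777 to 4.4 RPM. Of the 13 macrophage markers, 3 were called higher in SKO PreL and 1 lower, beside 5.32% and 5.83% of all genes. There 6 of 7 Leydig cell, 5 of 6 lymphocyte and 5 of 8 Sertoli cell markers tested were called higher, and 0 lower. In SKO SPG, 10 of 13 macrophage, 5 of 7 Leydig cell and 2 of 5 lymphocyte markers were called higher, beside 3.95% of all genes. So were 1 of 6 Sertoli cell and 2 of 3 myoid cell markers, and none of these lists had a gene called lower, beside 2.06%. None of the 13 macrophage markers was at 0 in all libraries of a PreL group, and 1 of the 7 lymphocyte markers was at 0 throughout WT PreL. The member sums in SPG were 18.4 to 21.2 RPM in WT and 23.2, 39.8 and 19.9 RPM in SKO libraries 1, 3 and 4. The Sertoli cell sums of those SKO libraries were 79.2, 47.0 and 91.7 RPM.

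The 2 WT LZ libraries also differed in these markers. Sertoli cell markers summed to 1419 RPM in library 2 and 280 RPM in library 3, and the 9 interferon-stimulated genes to 33.2 and 10.8 RPM. In SKO LZ, Sertoli cell markers summed to 459, 607 and 441 RPM in libraries 1, 2 and 3, and the 9 interferon-stimulated genes to 13.9, 26.7 and 17.0 RPM. Macrophage markers summed to 49.1 to 53.8 RPM in WT LZ and 158 to 166 RPM in SKO LZ, and Leydig cell markers to 20.9 to 57.3 and 79.1 to 229.7 RPM. Of 10 macrophage markers tested in LZ, 6 were called higher in SKO and 1 lower, beside 13.4% and 25.8% of all genes. Of 7 Leydig cell markers 5 were called higher and 0 lower, and of 8 Sertoli cell and 4 lymphocyte markers 0 were called. Lymphocyte markers summed to 9.29 to 13.1 RPM in WT LZ and 4.47 to 10.5 RPM in SKO LZ. Markers of spermatids (8 genes, *Tnp2* and *Prm1* the most abundant), which summed to 552 to 929 RPM in WT PreL and 574 and 978 RPM in WT LZ, were at 14.0 RPM or less in every SKO library. The part of these cells in the values of the interferon-stimulated genes was not tested.

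**Figure D3:**
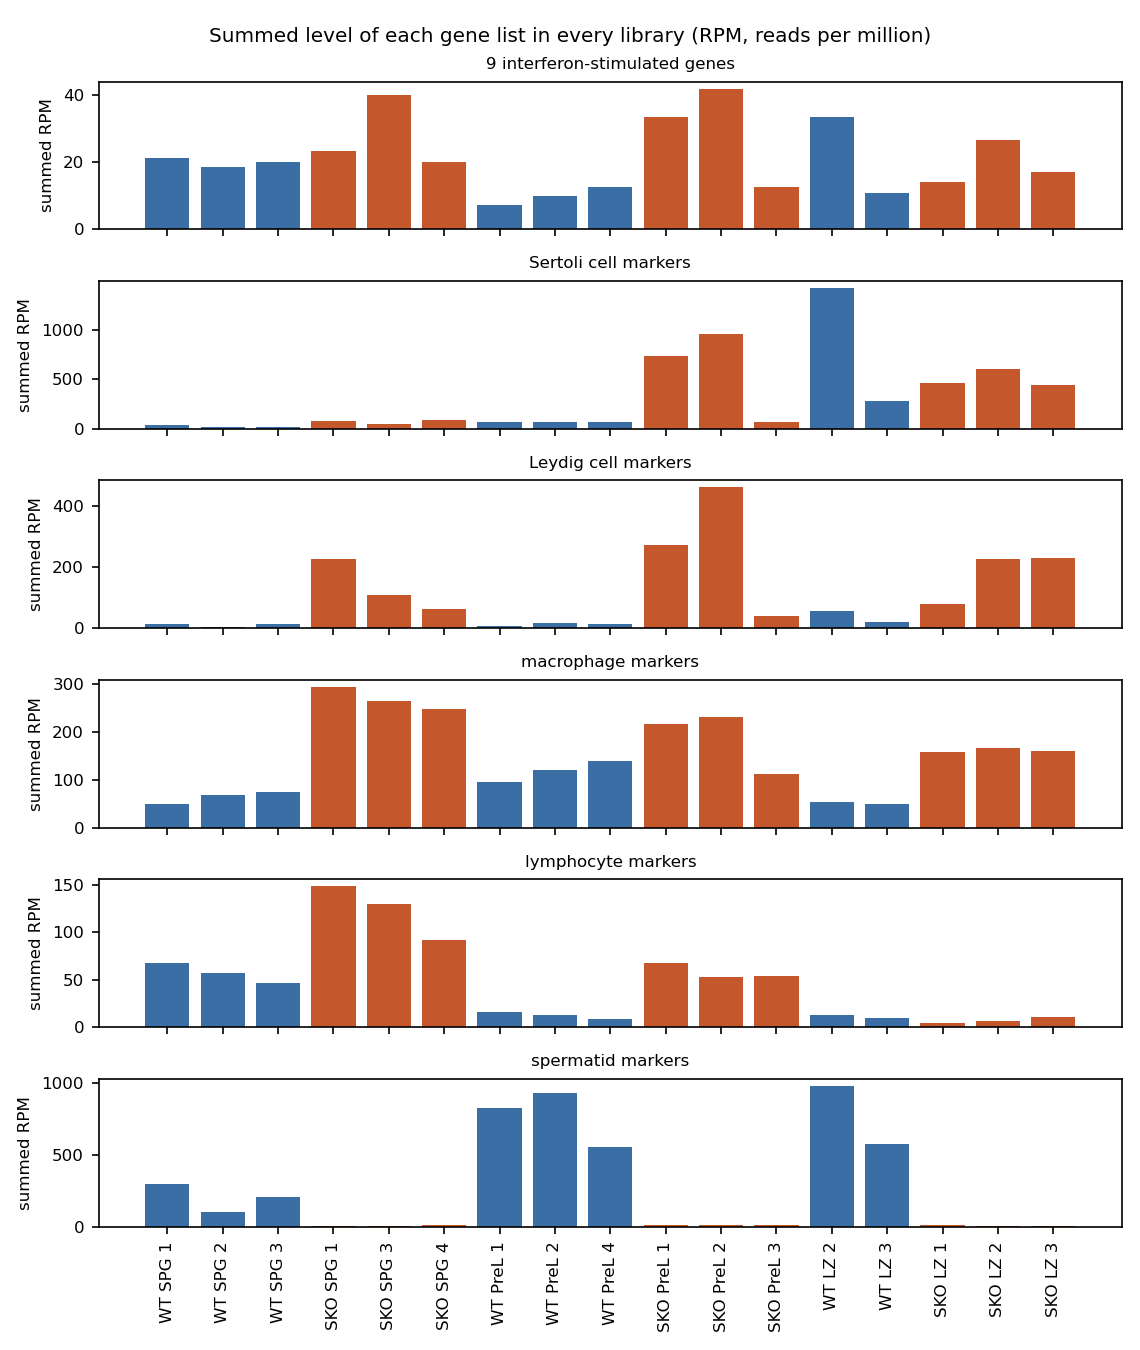
Summed level, in RPM (y axis, from 0), of the 9 interferon-stimulated genes and of 5 marker lists in each of the 17 libraries (x axis; blue WT, orange SKO). SKO PreL libraries 1 and 2 and WT LZ library 2 stand high in the member sum (33.3, 41.8 and 33.2 RPM) and in the Sertoli cell sum (737, 958 and 1419 RPM), and SKO PreL library 3 is low in both. SKO SPG library 3 stands high in the member sum (39.8 RPM) but low in the Sertoli cell sum (47.0 RPM).

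Around the members, other genes of the interferon pathway were taken from a list of 98, of which 97 were in the table, 7 of them under an older symbol. Most of those called were higher in SKO. In SPG, 14 of 70 tested were called higher and 0 lower (20.0% beside 3.95% of all genes), with a median log2 fold change of 0.73 beside 0.00. In PreL it was 18 higher and 1 lower of 66 (27.3% beside 5.32%), with a median of 1.01 beside 0.04. In LZ it was 17 higher and 6 lower of 61 (27.9% beside 13.4%), with a median of 0.87 beside -0.13. These percentages are of genes called higher. Of all genes, 2.06% were called lower in SPG, 5.83% in PreL and 25.8% in LZ. In PreL, 11 to 26 were called when 1 library was left out. Genes scarce in WT could pass the filter through their SKO reads, as *Ifnar2* did in PreL.

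The ligands were almost silent. Of 9 interferon genes, *Ifng*, the type II interferon made by T and NK cells, had 25, 24 and 17 reads in SKO SPG and 12, 0 and 0 in WT SPG, and 10, 5 and 7 in SKO PreL against 0 in each WT PreL library. The other interferon genes had at most 3 reads in any library, and *Ifna1*, *Ifna2*, *Ifne* and *Ifnk* had none. Of 6 receptor chains, 5 were tested in each stage. *Ifnar2*, a chain of the type I receptor, had 11, 8 and 1 reads in WT SPG against 99, 83 and 50 in SKO SPG, and 1, 4 and 3 in WT PreL against 45, 66 and 26 in SKO PreL. Its groups did not overlap in either stage, as for 15.2% and 17.4% of all genes in that direction. The log2 fold changes of *Ifnar2* were 2.59 ± 0.53 and 2.47 ± 0.46 (adjusted p = 0.00749 and 0.00759, limma). In both stages it passed the filter through its SKO reads. *Ifngr1*, a chain of the type II receptor, was higher in SKO by 1.73 ± 0.23 in SPG and 1.28 ± 0.23 in PreL (adjusted p = 0.000572 and 0.00635). In LZ it had 389 and 252 reads in WT and 67, 111 and 103 in SKO, and every SKO library was below both WT libraries, as for 39.8% of all genes, but it was not called (-0.37 ± 0.23, adjusted p = 0.226). *Ifnar1*, the other type I chain, had 2728 and 2548 reads in WT LZ and 7168 to 7724 in the shallower SKO LZ libraries, and was called higher there (2.92 ± 0.24, adjusted p = 8.08e-05), as was *Ifnar2* (1.60 ± 0.49, adjusted p = 0.0276). *Ifnar2* had 38 and 15 reads in WT LZ and 15, 46 and 38 in SKO LZ. In RPM its groups overlapped, at 2.75 and 1.10 in WT and 2.58, 6.05 and 5.49 in SKO. In PreL *Ifnar1* went the other way, with 6365, 7452 and 7958 reads in WT and 4653, 3893 and 3908 in SKO. Its groups there did not overlap, as for 20% of all genes in that direction, and its log2 fold change of -0.95 ± 0.15 (adjusted p = 0.0040) was short of the fold threshold. *Ifng* and these receptor chains were singled out after their values were seen.

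In signalling and transcription, *Irf8*, a transcription factor of macrophages and other blood cells, had 61, 1 and 21 reads in WT SPG and 157, 73 and 99 in SKO SPG, and was called higher (2.2 ± 0.61, adjusted p = 0.0340). *Irf9*, which acts in a complex with *Stat2*, was called higher in LZ, with 656 and 354 reads in WT and 2246, 2057 and 1917 in SKO (3.5 ± 0.26, adjusted p = 6.29e-05). It was not called in SPG or PreL, where its log2 fold changes of -0.63 ± 0.17 and -0.68 ± 0.15 were short of the fold threshold. Every SKO library was nevertheless below every WT library in both stages, as for 14.4% and 20% of all genes. *Irf9* stood at 72.7 to 91.0 RPM in WT SPG and 46.9 to 55.7 RPM in SKO SPG.

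Among antiviral effectors, 4 of 24 tested were called higher in SPG, 5 of 23 in PreL and 7 of 21 in LZ, beside 3.95%, 5.32% and 13.4% of all genes. In this group 1 was called lower in PreL and 1 in LZ, beside 5.83% and 25.8% of all genes. *Ifitm2* and *Ifitm3*, membrane proteins that block the entry of viruses, led in SPG. *Ifitm3* had 120, 1 and 66 reads in WT SPG and 597, 292 and 229 in SKO SPG (3.10 ± 0.71, adjusted p = 0.0127, limma), and *Ifitm2* rose by 2.87 ± 0.65 (adjusted p = 0.0129). In PreL, *Ifitm2* had 15, 11 and 15 reads in WT and 175, 169 and 82 in SKO (2.75 ± 0.37, adjusted p = 0.00170), and *Ifi27l2a*, a mitochondrial protein induced by interferon, rose by 2.23 ± 0.40 (adjusted p = 0.00645). In both genes, which were named for the size of their change, all SKO PreL libraries were above all WT PreL libraries, as for 17.4% of all genes.

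*Xaf1*, a binding partner of the apoptosis inhibitor XIAP, went opposite ways in PreL and LZ. It had 8942, 14594 and 14326 reads in WT PreL and 6655, 5756 and 5621 in SKO PreL, a log2 fold change of -1.18 ± 0.22 (adjusted p = 0.00687, limma). In LZ it had 2720 and 3352 reads in WT and 12334, 11784 and 12760 in SKO (3.43 ± 0.29, adjusted p = 9.83e-05). It was the only gene of the list called lower in PreL.

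For antigen presentation, 2 of 8 genes were called higher in SPG, 4 of 8 in PreL and 2 of 7 in LZ, beside the same shares of all genes, and none lower. *B2m*, the light chain of MHC class I, had 544, 363 and 350 reads in WT PreL and 2291, 2329 and 1415 in SKO PreL (2.1 ± 0.20, adjusted p = 0.000215, limma), and it was called in 18 of 18 alternatives. For the interferon-induced GTPases it was 2 of 7, 4 of 7 and 2 of 6 higher, beside 3.95%, 5.32% and 13.4% of all genes. None was lower, beside 2.06%, 5.83% and 25.8%. Of the GTPases tested in PreL, *Gbp2*, *Gbp3*, *Igtp* and *Iigp1* averaged under 10 reads in WT and passed the filter through their SKO reads. *Irgm1*, which acts in autophagy and defence within cells, was called in LZ, with 273 and 290 reads in WT and 2281, 1629 and 1788 in SKO (4.13 ± 0.33, adjusted p = 7.68e-05). In LZ, 6 of the 61 pathway genes tested were called lower, beside 25.8% of all genes. Of these 6, 2 were conjugation enzymes of ISG15, 3 belonged to the sensors and their adaptors and 1 was an antiviral effector. *Herc6*, the ISG15 ligase of the mouse, had 272 and 515 reads in WT LZ and 3, 12 and 2 in SKO LZ (-4.71 ± 0.65, adjusted p = 0.000859). *Ube2l6*, the conjugating enzyme, had 375 and 238 against 9, 38 and 26 (-2.38 ± 0.46, adjusted p = 0.00406), and *Dhx58*, a RIG-I-like receptor, had 170 and 517 against 3, 4 and 3 (-4.68 ± 0.61, adjusted p = 0.000653). In PreL, *Herc6* had 35, 43 and 40 reads in WT and 66, 50 and 31 in SKO and was not called. In LZ the libraries also differed in markers of late spermatocytes (7 genes, *Ldhc* and *Clgn* the most abundant), which summed to 3310 and 5954 RPM in WT and 25.1 to 30.8 RPM in SKO, and the part of these cells was not tested.

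**Figure D4:**
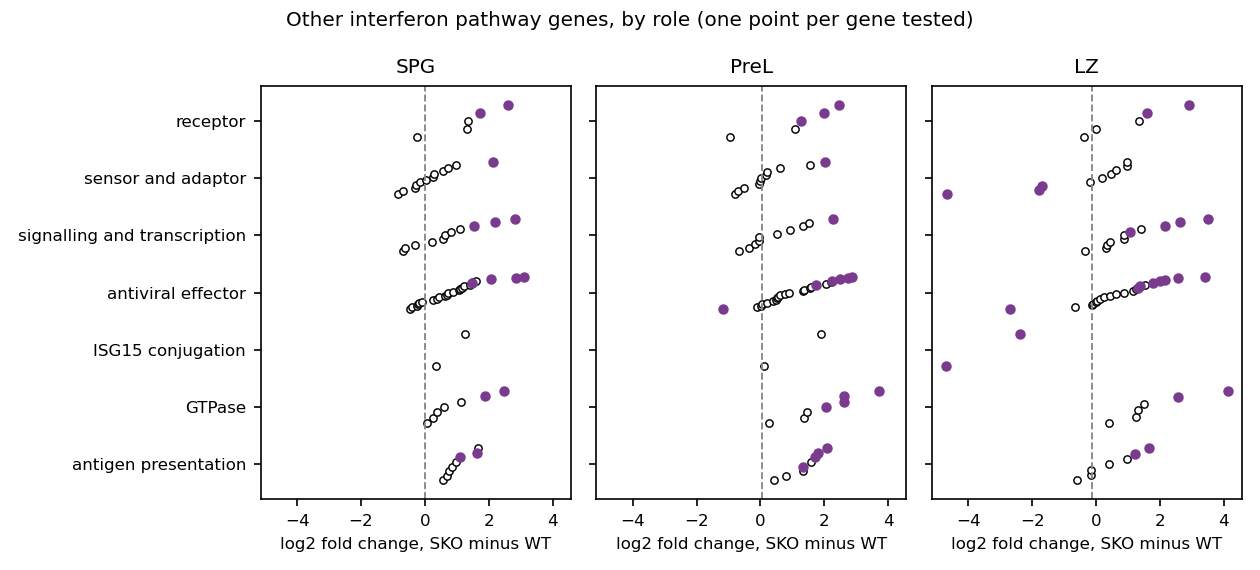
Log2 fold change, SKO minus WT (x axis), of each other interferon pathway gene tested in SPG, PreL and LZ, by role (y axis), without the ligands. Filled points were called and open points were not, and the dashed line is the median of all genes tested. Called genes lie to the right in SPG and, but for 1 gene, in PreL, while in LZ 6 lie to the left, among them both conjugation enzymes. Of all genes, 25.8% were called lower in LZ.

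The genes most like the members across the 17 libraries were ranked by Pearson's r with the mean standardised level of the 8 members that had at least 10 reads on average, among 13522 genes. The 5 nearest were *Ddr2* (r = 0.877), a collagen receptor, *Hsd3b6* (0.862), an enzyme of steroid synthesis in Leydig cells, *S100a10* (0.857), *Klf6* (0.844) and *Sat1* (0.844), the rate-limiting enzyme of polyamine breakdown. *Hsd3b6* had 723 and 961 reads in SKO PreL libraries 1 and 2 and 29 in library 3, and 125 and 0 in WT LZ libraries 2 and 3. *Ddr2* had 43, 41 and 4 in the former and 22 and 1 in the latter. The points share stage, genotype and library, and the ranking describes these libraries only.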

How the data were processed

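Polyadenylated RNA of sorted WT and *Nat10*-SKO SPG, PreL and LZ cells was sequenced with ERCC spike-in RNA (17 libraries). The authors trimmed the reads, mapped them to mm10, used HTSeq 0.11.2 to count the uniquely mapped reads of each gene and multiplied the counts of a library by a factor from the ERCC table and the amount of cell input. The submitters' processing notes also name TopHat2 2.1.1, Cufflinks 2.2.1 and DESeq2. The deposited values are therefore a signal scaled per library, except in WT SPG library 1, where the factor is 1 and the deposited values are counts. Factors ran from 1 to 10.4, and 100% of values came out as whole reads after division.

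A gene entered a comparison if its recovered reads averaged 10 or more over the libraries compared. Size factors by the median of ratios were divided out of the deposited values, which were then tested as log2(value + 10) with limma 3.58.1 (R 4.3.3) and a mean-variance trend, with Benjamini-Hochberg adjustment over all genes tested. A gene was called at an adjusted p under 0.05 with a log2 fold change beyond 1 in either direction (no fold threshold for interactions). Genotypes were compared within a stage, and stages and interactions in 1 fit of all libraries. Alternatives used TMM scaling, no rescaling, other pseudocounts and filters, edgeR 4.0.16 and DESeq2 1.42.0 on recovered reads, the replicate number as a block, and each library left out. RPM are recovered reads per 1000000 of the library. Libraries of a group differed by 5.88 to 62.4 times what sampling noise gives (chi-square over its degrees of freedom), so none was a copy. Counting intervals were exact (Clopper-Pearson, scipy 1.17.1) and cover counting error only. Their pairs of groups were picked by hand, each with 1 summed read in the lower group, so large ratios follow in part from that choice. The fits were tested on simulated data.

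The members, the pathway list and the marker lists were chosen with earlier results of these data known. Named pathway genes were, per stage and direction, the 3 called genes that changed most, out of those averaging 50 reads or more. Of a marker list the 2 genes with the most reads are named, and of the likest genes the 5 with the highest r. *Ifi27* of the pathway list was not found under its symbol.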

Additional observations from a re-analysis of the deposited data

Results flagged for a closer look

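For 6 of the named pathway genes, which were named for the size of their change in LZ and so favoured by that choice, the SKO effect differed between LZ and PreL in the test of that difference (interaction in the fit of all libraries, limma, adjusted p under 0.05). In this test 15.1% of all genes were called upwards and 23.1% downwards. The effect was larger in LZ for *Irf9*, by 4.19 ± 0.28 on the log2 scale (SE, adjusted p = 7.94e-09), for *Irgm1*, by 3.88 ± 0.36 (adjusted p = 9.65e-08), and for *Xaf1*, by 4.63 ± 0.36 (adjusted p = 1.82e-08). The difference of the effects was -3.58 ± 1.07 for *Dhx58* (adjusted p = 0.0130), -4.48 ± 1.06 for *Herc6* (adjusted p = 0.00267) and -4.21 ± 0.81 for *Ube2l6* (adjusted p = 0.000481). WT LZ libraries held markers of late spermatocytes at 3310 and 5954 RPM and SKO LZ libraries at 25.1 to 30.8 RPM, and the part of these cells was not tested. Of the 9 interferon-stimulated genes, 8 were tested, and none was called by this test. Groups of 2 or 3 libraries were too small for a test of single outlying libraries.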

How the results depend on the processing

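Most member values rest on fewer than 100 reads per library, which limits what can be called. The replicate numbers of WT and SKO libraries were checked for pairing: deviations from the group means correlated at 0.07 and -0.00088 in SPG, -0.05 and 0.11 in PreL and 0.10 and 0.09 in LZ. Correlations from groups of 2 or 3 libraries cannot decide whether equal numbers stand for a shared animal or sort. What the numbers stand for was not given in the sources used here. With the replicate number as a block, called members numbered 1 in SPG, 4 in PreL and 1 in LZ (against 0, 2 and 0), 2 from SPG to PreL in WT, 1 from PreL to LZ in WT and 1 in SKO, and 33 other pathway genes were called in PreL.

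For SKO against WT in PreL, called members numbered 4 on values not rescaled and 1 each with a pseudocount of 1 or 50, with no filter, with a minimum mean of 50 reads and by edgeR. With SKO library 3 as the only SKO library, an alternative added after the data were seen, 0 of the 4 tested were called, but there the spread comes from WT alone and fewer calls follow from the design. Leaving out 1 library gave 0 to 3: 0 without SKO library 1 or 2 or WT library 1 or 2, 1 without WT library 4 and 3 without SKO library 3. In SPG 1 was called in a fit of all 17 libraries. In LZ, where leaving out a WT library leaves 1, 2 were called with no filter, and 0 to 2 when a library was left out (2 without WT LZ library 2). From SPG to PreL in WT, 3 were called by DESeq2 and 1 to 2 without 1 library, and in SKO 2 without rescaling and 0 to 1 without 1 library. From PreL to LZ in WT, 1 was called with a pseudocount of 50, 2 with no filter, 1 with at least 50 reads, 2 by edgeR and 1 to 4 without 1 library, and in SKO 1 without rescaling. For the interactions, values not rescaled gave 2 calls from SPG to PreL and 2 from PreL to LZ, where a pseudocount of 1 or 50 gave 1 and leaving out a library 0 to 1.

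Other pathway genes called in SPG (14) numbered 8 with a pseudocount of 1, 6 with no filter, 8 with at least 50 reads, 7 by edgeR and 7 to 12 without 1 library (fewest without SKO library 1 or 3). In PreL (19) they numbered 39 without rescaling, 8 with at least 50 reads, 1 with SKO library 3 alone and 11 to 26 without 1 library (fewest without SKO library 1). In LZ (23) they numbered 15 with at least 50 reads and 15 to 31 without 1 library (fewest without WT LZ library 3).

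No called fold change of a member changed sign. Others did. In SPG, *Ifit1* was at -0.11 without rescaling, -0.0075 with a pseudocount of 50, -0.056 by edgeR, -0.050 by DESeq2, -1.11 with the block and -0.61 to 0.58 without 1 library. *Ifit2* was at 0.023 by edgeR, 0.043 by DESeq2, 0.73 with the block and -0.64 to 0.49 without 1 library. *Irf7* was at -0.12 without rescaling and -0.27 to 0.28 without 1 library, and *Stat2* at 0.13 by edgeR, 0.14 by DESeq2, 0.39 with the block and -0.75 to 0.37 without 1 library. In PreL, *Ifit3* was at 0.19 without rescaling and 0.26 with the block, and *Rsad2* at 0.19, 0.83 and, without 1 library, -0.74 to 0.31. In LZ, leaving out 1 library gave -0.29 to 1.44 for *Oasl2*, -0.026 to 3.45 for *Rsad2* and -0.32 to 0.26 for *Stat2*, which was at -0.082 without rescaling. Among stage comparisons, values not rescaled moved the median of all genes to between 0.08 and 1.80 and the share of calls that were lower from 23.5% to 0.461% (SPG to PreL in SKO), from 23.0% to 0.204% and from 38.1% to 3.72% (PreL to LZ in WT and SKO), and, for interactions, from 30.6% to 2.42% (16.1% with TMM) and from 60.5% to 89.8%. The causes were not tested.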
